A study of Mus musculus with 12 samples.

Results

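The 38 genes described here encode proteins that license replication origins, build the replication fork, supply deoxynucleotides, repair DNA and drive entry into S phase. They were taken by name, each read by its brightest probe set annotated to that gene alone, and make up 38 of the 11223 genes tested. All 38 were found, passed the filter on dim probe sets and lay above the array median on all 12 arrays. Total RNA came from 3 mouse acute myeloid leukaemia (AML) cell lines, with 4 oligonucleotide arrays for each. The line called Trib1 expressed Trib1, a pseudokinase that directs degradation of the myeloid factor C/EBPalpha. The lines TB13 and TB14 expressed Trib1 together with Bcl11a, a zinc finger repressor, so Trib1 was shared by all 3 lines and Bcl11a set TB13 and TB14 apart from the Trib1 line. All were cultured in IMDM with 10% serum and 5 ng/ml interleukin-3, with no treatment, and 100 ng of RNA was labelled. The series asks whether Bcl11a opposes the myeloid transcription factor PU.1. Each group was a single line, and nothing in the labels says that its 4 arrays came from separate cultures or how TB13 differs from TB14. The p-values therefore cover array-to-array spread alone, possibly technical in origin, and 4 arrays a line limit the precision.

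Before S phase, the origin recognition complex with Cdc6 and Cdt1 loads the Mcm2 to Mcm7 helicase onto DNA, and Cdc45 and the GINS complex then turn it into the active fork helicase. At the fork, replication factor C loads the sliding clamp Pcna, which tethers the polymerases, while replication protein A coats single-stranded DNA. Cyclin E and the E2F factors drive entry into S phase, and many replication genes are known E2F targets that are transcribed in proliferating cells, leukaemia cells among them. In bulk RNA, more cells in S phase and more transcript per cell cannot be told apart.

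Intensities below are quantile scaled across the 12 arrays, a scaling that gives every array the same distribution. Differences are on the log2(intensity + 12.7) scale, and calls rest on limma with Benjamini-Hochberg adjustment over all 11223 genes, at a threshold of 0.05. The TB13 arrays stood apart before scaling. For 18 hybridization controls, RNAs added in fixed amounts, the difference between TB13 and Trib1 arrays was taken control by control. The median of these differences was -1.11 log2 units, and 17 of the 18 were lower on TB13 arrays. For TB14 against Trib1 arrays the median difference was 0.0012, and 8 of 18 were lower. Because all 4 TB13 arrays shared this shift, the array shift and the TB13 line cannot be told apart, and differences involving TB13 are given under 5 scalings. All 13 haematopoietic and myeloid markers lay above the array median in every line, with Spi1, Cebpa, Prtn3 and Ctsg present. Of 8 stromal and endothelial markers, 2 lay above it on all 4 arrays in Trib1, 3 in TB13 and 2 in TB14. Pecam1 had line means of 685, 417 and 502 in Trib1, TB13 and TB14, and Kdr 31.3, 64.1 and 29.9. The collagens Col1a1, Col1a2 and Col3a1 of that list stayed between 8.17 and 11.7. The 4 Bcl11a probe sets lay between 6.70 and 21.5 deposited units and the 2 Trib1 probe sets between 14.4 and 40.1 on all 12 arrays, so these probes did not check the labels.

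Promoters of 32 of the 38 genes were present in the RefSeq mouse table, build GRCm38.p6. For each gene only the first listed start was used, so any other starts were not searched and a window may miss the promoter in use. The 250 bases before that start were searched on both strands for 3 E2F-type sequences, TTTCCCGC, TTTGGCGC and TTTGCCGC. At least 1 of them occurred in 5 of the 32 members, or 15.6%, against 454 of 27025 windows of the same length, or 1.68%. The first occurred in 2 members (6.25%, against 0.929% of all windows), the second in 3 (9.38%, against 0.437%) and the third in 0 (against 0.333%). CCAAT, the letters bound by the factor NF-Y, occurred in 20 of 32 members (62.5%, against 34.5%). CACGTG, an E-box, occurred in 3 (9.38%, against 6.05%). GAGGAAGT, a PU.1-type sequence, occurred in 0 of 32 and in 2.44% of all windows. The 6 matches to the 3 E2F-type sequences searched overlapped neither each other nor a CCAAT match. They lay 138 bases before the start in Cdc6, 149 in Mcm5, 110 and 47 in Mcm6, 165 in Mcm7 and 138 in Pola1. A further E2F-type form, TTTCGCGC, was not searched, so the counts and positions cover the searched forms alone. On either strand, it stands in the windows of Orc1 and Rfc3, which were counted as without a match. In Mcm5 and Mcm6 it overlaps a match. The windows of Cdc6 and 3 helicase subunits are printed 5′ to 3′ as examples that hold a match, with the letters of a searched form in capitals. These genes were called higher in TB14, but so were members whose windows held no match, Mcm2 and Mcm3 among them. Capitals that do not match a searched form as written are its reverse complement. The windows are chr11:98907901-98908150 on the plus strand, chr8:75109259-75109508 plus, chr1:128359706-128359955 minus and chr5:138171884-138172133 minus.
Cdc6: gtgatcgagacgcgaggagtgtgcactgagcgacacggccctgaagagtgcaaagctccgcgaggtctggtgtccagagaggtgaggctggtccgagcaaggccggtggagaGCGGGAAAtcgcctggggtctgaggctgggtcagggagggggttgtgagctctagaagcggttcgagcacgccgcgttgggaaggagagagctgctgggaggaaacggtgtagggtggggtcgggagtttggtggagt
Mcm5: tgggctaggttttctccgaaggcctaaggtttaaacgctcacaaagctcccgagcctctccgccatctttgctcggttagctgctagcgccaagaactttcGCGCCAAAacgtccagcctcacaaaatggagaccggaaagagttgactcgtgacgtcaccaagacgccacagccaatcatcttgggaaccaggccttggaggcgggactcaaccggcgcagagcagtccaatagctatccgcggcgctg
Mcm6: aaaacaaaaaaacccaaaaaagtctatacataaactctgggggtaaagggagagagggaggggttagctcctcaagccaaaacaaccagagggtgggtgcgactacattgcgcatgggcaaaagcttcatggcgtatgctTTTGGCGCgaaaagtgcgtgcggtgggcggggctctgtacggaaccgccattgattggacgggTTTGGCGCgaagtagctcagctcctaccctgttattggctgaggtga
Mcm7: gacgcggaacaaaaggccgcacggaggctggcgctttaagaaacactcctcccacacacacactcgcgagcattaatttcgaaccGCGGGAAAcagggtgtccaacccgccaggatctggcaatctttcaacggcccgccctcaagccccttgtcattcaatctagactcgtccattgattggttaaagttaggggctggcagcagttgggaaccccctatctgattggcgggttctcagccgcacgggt
A match describes the letters of the window and shows no binding.

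TB14 carried more transcript of most of these genes than the Trib1 line. Of the 38, 31 were called higher and 2 lower, while 22.9% and 20.9% of all genes tested were called higher and lower. With a change of at least 1.2-fold required as well, 19 members were higher and 1 was lower, against 10.3% and 11.4% of all genes. The median member differed by 0.27 and the median of all genes by -0.0051. All 4 TB14 arrays lay above all 4 Trib1 arrays for 32 members, below them for 2 (Rfc2 and Rfc4) and overlapped them for 4 (Rfc3, Rpa1, Pole and Msh6). The same non-overlap upwards held for 29.0% of all genes and downwards for 27.0%. Under each of the 5 scalings, 29 members were called higher (19.3% of all genes) and Rfc2 and Rfc4 lower (17.3% of all genes). The TB14 means ranged from 0.83 times the Trib1 mean for Rfc2 to 1.66 times for Cdc6. The median SD between arrays of a line was 0.033 log2 units over the members, beside the median change of 0.27.

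**Figure D1:**
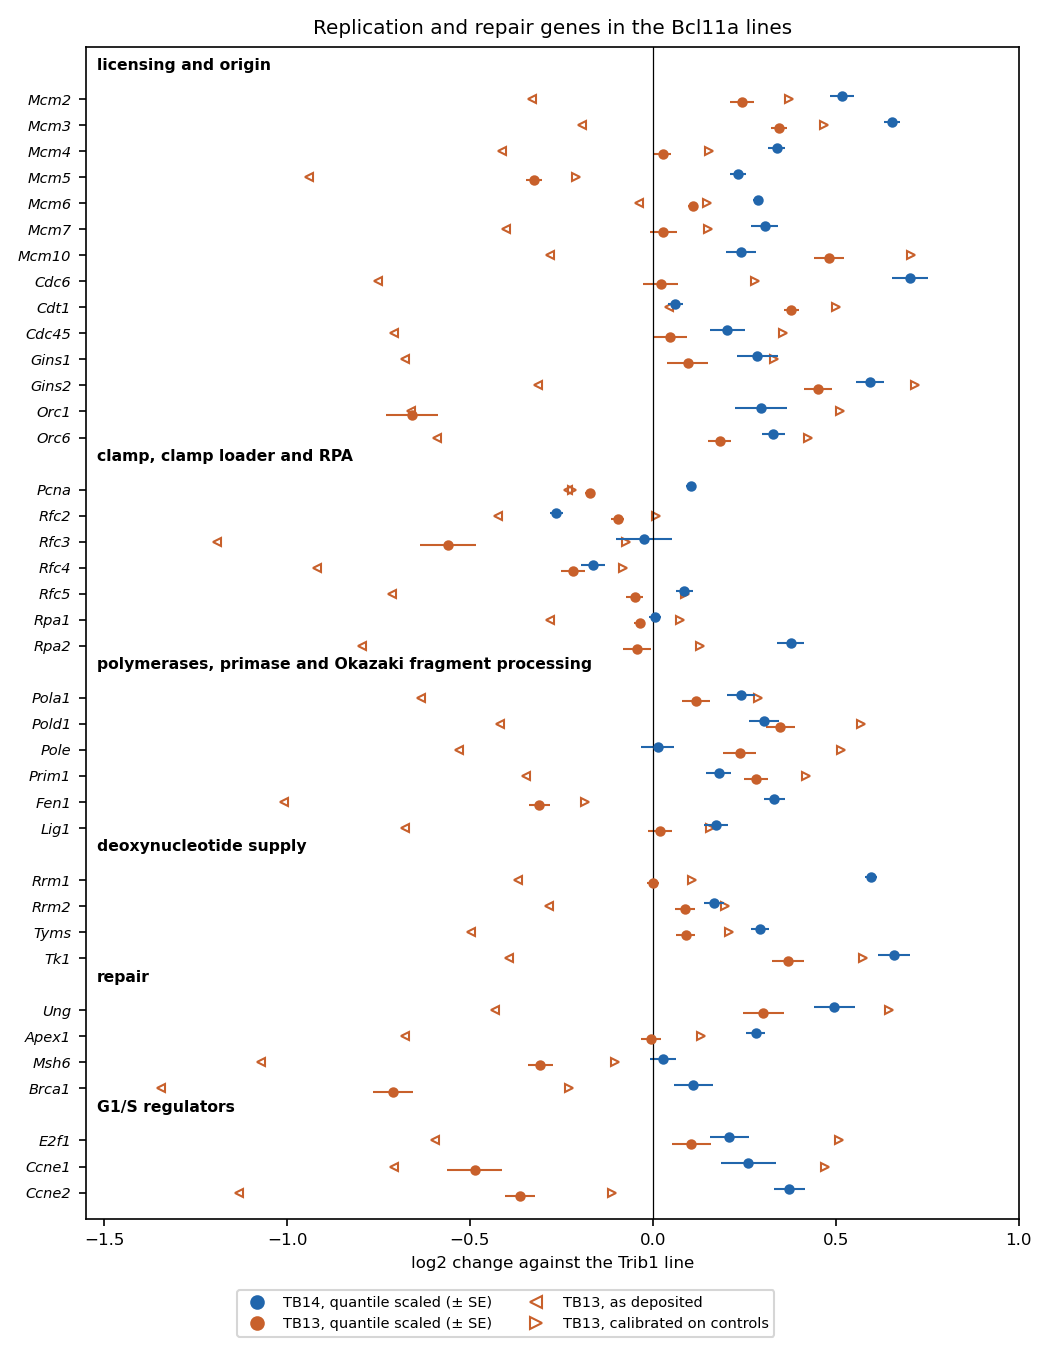
Log2 change of each of the 38 genes against the Trib1 line (x axis), grouped by role. Filled circles give the quantile-scaled change with its standard error for TB14 (blue) and TB13 (orange), and open triangles give TB13 as deposited (left-pointing) and calibrated on the hybridization controls (right-pointing). The TB14 points lie right of 0 except those of Rfc2, Rfc3 and Rfc4, while the TB13 triangles lie on opposite sides of 0 for most genes.

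All 14 licensing and origin genes were called higher in TB14, with differences from 0.061 to 0.70 and a median of 0.30. Mcm3, a helicase subunit, read 653, 651, 634 and 655 on the Trib1 arrays and 1061, 1030.2, 1018 and 998 on the TB14 arrays (log2 difference 0.65 ± 0.022, adjusted p = 2.21e-13). The ranges were far apart, and the TB14 mean was 1.58 times the Trib1 mean. Mcm2 read 609, 602, 609 and 621 on the Trib1 arrays and 891, 896, 879.8 and 851 on the TB14 arrays (log2 difference 0.52 ± 0.033, adjusted p = 8.92e-10). Mcm4 read 932, 951, 994 and 927 on the Trib1 arrays and 1180.1, 1198, 1197 and 1244 on the TB14 arrays (log2 difference 0.34 ± 0.024, adjusted p = 3.20e-09). In each of these subunits the lowest TB14 array lay above the highest Trib1 array. Mcm5 read 740.2, 727, 745 and 749 on the Trib1 arrays and 887, 876, 864 and 860.1 on the TB14 arrays (log2 difference 0.23 ± 0.023, adjusted p = 1.88e-07), the smallest difference of the 6 subunits. Mcm6 read 2161, 2179.7, 2153 and 2174 on the Trib1 arrays and 2676, 2652, 2616 and 2642 on the TB14 arrays (log2 difference 0.29 ± 0.012, adjusted p = 5.18e-12). Mcm7 read 983, 996, 939 and 1009 on the Trib1 arrays and 1215, 1218, 1223 and 1206 on the TB14 arrays (log2 difference 0.31 ± 0.037, adjusted p = 2.86e-06). The 6 subunits form 1 ring, and all 6 were higher in TB14 with no overlap, by 0.23 to 0.65.

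Cdc6, an ATPase that helps load the ring, differed most of the 38 genes. It read 229, 237, 228 and 245 on the Trib1 arrays and 384, 403, 391 and 383 on the TB14 arrays (log2 difference 0.70 ± 0.048, adjusted p = 2.48e-09). The lines were separated by more than the full range within either. Cdt1, its partner in loading, read 1064, 1028, 1038 and 1063 on the Trib1 arrays and 1114, 1069, 1087 and 1107 on the TB14 arrays (log2 difference 0.061 ± 0.020, adjusted p = 0.0218), and the array ranges of the lines lay next to each other. The Cdt1 call was lost without Trib1 array 2 (adjusted p = 0.0797) or 3 (0.0593), without TB14 array 1 (0.0764) or 4 (0.0667), under cyclic loess (0.283) and with limma's variance prior held constant (0.0934). Of the factors that activate the ring, Gins2 rose from 188 ± 0.599 (SD, n = 4) to 289 ± 7.84 (log2 difference 0.59 ± 0.038, adjusted p = 1.16e-09). Gins1 read 239 to 256 in Trib1 and 299.7 to 312 in TB14 (log2 difference 0.29 ± 0.056, adjusted p = 0.000442). Cdc45 differed by 0.20 ± 0.047 and Mcm10, which helps start unwinding, by 0.24 ± 0.041. Of the origin recognition complex, Orc6 went from 233 ± 2.18 to 296 ± 4.61 (log2 difference 0.33 ± 0.031, adjusted p = 1.60e-07). Orc1, an ATPase subunit, went from 64.9 ± 1.76 to 82.6 ± 2.62 (log2 difference 0.30 ± 0.071, adjusted p = 0.00252).

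The clamp and its loader did not share the size of the helicase change. Pcna, the clamp, read 3461, 3506, 3519 and 3477 on the Trib1 arrays and 3707, 3755, 3771 and 3771 on the TB14 arrays (log2 difference 0.10 ± 0.014, adjusted p = 7.48e-06), a rise to 1.07 times the Trib1 mean with no overlap. Rfc2, a small subunit of the clamp loader, read 1359.8, 1418, 1372 and 1371 on the Trib1 arrays and 1136, 1152, 1160.1 and 1139 on the TB14 arrays (log2 difference -0.26 ± 0.018, adjusted p = 1.68e-09) and was lower in TB14 on every array. Rfc4 read 523, 521, 525 and 528 on the Trib1 arrays and 473, 457, 464 and 473 on the TB14 arrays (log2 difference -0.16 ± 0.032, adjusted p = 0.000402), again lower with no overlap. Rfc5 read 541, 546, 529.9 and 532 on the Trib1 arrays and 568, 570.3, 574 and 571 on the TB14 arrays (log2 difference 0.085 ± 0.023, adjusted p = 0.00652), slightly higher, and its call was lost under cyclic loess (adjusted p = 0.295). Rfc3 read 183 to 197 in Trib1 and 183 to 190.3 in TB14 (log2 difference -0.024 ± 0.076, adjusted p = 0.854). The 4 loader subunits therefore held 2 falls, 1 rise and 1 gene that did not pass the test.

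Of replication protein A, Rpa2 read 379, 369.9, 370.2 and 362 on the Trib1 arrays and 493, 501, 487 and 458 on the TB14 arrays (log2 difference 0.38 ± 0.037, adjusted p = 2.63e-07) and rose clear of the Trib1 range. Rpa1, the large subunit of the same complex, read 1556 to 1592 in Trib1 and 1570.1 to 1599 in TB14 (log2 difference 0.0060 ± 0.016, adjusted p = 0.816), so subunits of 1 complex did not show the same difference.

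To set the helicase beside the loader within each array, the mean log2 intensity of Mcm2 to Mcm7 minus that of Rfc2 to Rfc5 was taken, a comparison chosen after their values were seen and given without a test. It was 0.78 to 0.80 on the 4 Trib1 arrays and 1.25 to 1.29 on the 4 TB14 arrays. On the TB13 arrays it was 1.05 to 1.12, between the other lines with no overlap. The difference from Trib1 was 0.48 for TB14 and 0.30 for TB13. For TB14 it was 0.44 on the deposited values, 0.44 under median scaling, 0.45 under cyclic loess and 0.50 with calibration on the controls. For TB13 the same 4 values were 0.43, 0.42, 0.28 and 0.19. The helicase-minus-loader value was thus higher than in Trib1 in both Bcl11a lines under all 5 scalings. The level of the members in TB13 was not fixed by the scaling. Median scaling multiplies each array by a constant, which leaves this value nearly unchanged, so it had to repeat the deposited result. The helicase subunits were brighter on average than the loader subunits. Before scaling every TB13 array had a higher median and a lower upper quartile than every Trib1 array, so its shift differed with intensity. The part of that shift in the TB13 value was not tested. The helicase-minus-loader value shows unequal change within arrays and not which complex changed.

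**Figure D2:**
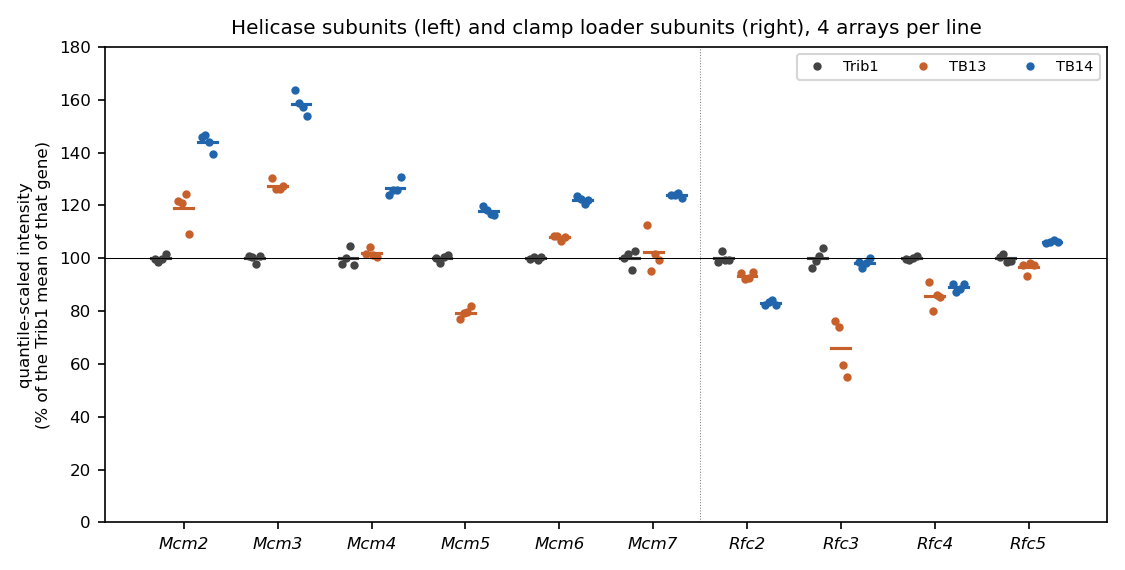
Quantile-scaled intensity of the 6 helicase subunits Mcm2 to Mcm7 (left of the dotted line) and the 4 clamp loader subunits Rfc2 to Rfc5 (right), as a percentage of each gene's mean in the Trib1 line (y axis, from 0). Points are single arrays, 4 per line, and short bars are line means. The blue TB14 points lie above all Trib1 points for each helicase subunit and below them for Rfc2 and Rfc4.

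Of the polymerase and Okazaki fragment genes, 5 of 6 were called higher in TB14 and 0 lower, at an unadjusted p under 0.05 as well, with a median difference of 0.21. Fen1, the nuclease that trims flaps from Okazaki fragments, read 565, 582, 562 and 571 on the Trib1 arrays and 712, 739.8, 720.3 and 709 on the TB14 arrays (log2 difference 0.33 ± 0.028, adjusted p = 4.11e-08). All 4 TB14 arrays lay well above the Trib1 range. Pold1, the catalytic subunit of polymerase delta, read 233 to 248 in Trib1 and 287 to 306 in TB14 (log2 difference 0.30 ± 0.040, adjusted p = 7.56e-06). Pola1, catalytic subunit of polymerase alpha, differed by 0.24 ± 0.038 and Prim1, the primase that works with it, by 0.18 ± 0.033. Lig1, which seals Okazaki fragments, differed by 0.17 ± 0.033. Pole, the catalytic subunit of the leading strand polymerase epsilon, read 205, 198, 204 and 191 on the Trib1 arrays and 192, 195, 211 and 207 on the TB14 arrays (log2 difference 0.013 ± 0.045, adjusted p = 0.869). Its ranges overlapped, which separated it from the other 5 genes of this group.

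All 4 deoxynucleotide supply genes rose in TB14, with a median of 0.44. Rrm1, the large subunit of ribonucleotide reductase, read 1186, 1189, 1179 and 1205 on the Trib1 arrays and 1793, 1801, 1825 and 1797 on the TB14 arrays (log2 difference 0.60 ± 0.016, adjusted p = 1.60e-14). It had the smallest adjusted p of the 38, and its TB14 mean was 1.52 times the Trib1 mean. Rrm2, the small subunit of the same enzyme, read 1097, 1152, 1150.0 and 1110.1 on the Trib1 arrays and 1259.9, 1279.6, 1277 and 1251 on the TB14 arrays (log2 difference 0.17 ± 0.028, adjusted p = 9.49e-05). The rise of Rrm2 on its brightest probe set was smaller, and its other kept probe set gave 0.45 for the same comparison. Tk1, thymidine kinase, read 248, 250.2, 255 and 259 on the Trib1 arrays and 412, 416, 399 and 401 on the TB14 arrays (log2 difference 0.66 ± 0.043, adjusted p = 1.19e-09). Tyms, thymidylate synthase, went from 649 ± 13.1 to 798 ± 3.97 (log2 difference 0.29 ± 0.025, adjusted p = 4.90e-08). Salvage (Tk1) and synthesis (Tyms) of thymidylate thus both read higher, without overlap between the lines.

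The repair genes split. Ung, which removes uracil from DNA, read 157, 163, 152 and 167 on the Trib1 arrays and 223, 223, 243 and 234 on the TB14 arrays (log2 difference 0.50 ± 0.056, adjusted p = 1.13e-06). Apex1, the endonuclease that cuts the resulting abasic sites, went from 511 ± 5.50 to 624 ± 12.4 (log2 difference 0.28 ± 0.027, adjusted p = 1.36e-07). Both base excision genes were higher on all 4 TB14 arrays. Msh6, of mismatch recognition, read 349 to 361 in Trib1 and 355 to 368 in TB14 (log2 difference 0.029 ± 0.035, adjusted p = 0.586). Brca1, of homologous recombination, read 202, 209, 209 and 208 on the Trib1 arrays and 224, 217, 222 and 235 on the TB14 arrays (log2 difference 0.11 ± 0.054, adjusted p = 0.112) and did not pass the test, although its ranges did not overlap. It passed with TB13 array 3 left out (adjusted p = 0.0257) and, among other settings, in a fit scaled without TB13 (8.13e-04), an alternative added after the data were seen.

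The 3 G1/S regulators were called higher in TB14. Ccne2, a cyclin E that activates Cdk2, read 290.0, 303, 300.5 and 296 on the Trib1 arrays and 395, 391, 390.3 and 378 on the TB14 arrays (log2 difference 0.37 ± 0.042, adjusted p = 1.09e-06). Ccne1, the other cyclin E, went from 84.4 ± 2.26 to 104 ± 4.02 (log2 difference 0.26 ± 0.076, adjusted p = 0.0093). E2f1, an activating E2F factor, went from 152 ± 5.40 to 178 ± 7.52 (log2 difference 0.21 ± 0.053, adjusted p = 0.00398), and its call was lost when its probe sets were averaged (adjusted p = 0.0966). The intensities of the cyclins did not overlap between the lines.

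Of the 38 genes, 18 had another probe set that passed the filter, 20 in all. For TB14 against Trib1, 19 of the 20 had the sign of the chosen probe set and 11 were called with it. The exception was a Tyms probe set at -0.048, which was not called. Cell type markers also differed between these lines, in both directions. Of the 13 haematopoietic and myeloid markers, 7 were called higher in TB14 than in Trib1 and 6 lower, and their summed intensity was 11969 to 12048 on the Trib1 arrays and 15245 to 15469.7 on the TB14 arrays. The granule enzyme genes Mpo (line means 195 and 2216), Elane (54.0 and 373), Prtn3 (1948 and 3128) and Ctsg (3783 and 4456) were higher, with Lyz2, Csf3r and Kit. Ptprc (1848 and 1282), Spi1 (501 and 374), Cebpa (1294 and 1058), Itgam (224 and 132), Csf1r (137 and 53.7) and Fcgr3 (1441 and 749.9) were lower. Of 5 mast cell markers tested, 3 were higher (Ms4a2 from 70.4 to 549.8, with Cpa3 and Mcpt8) and 2 lower (Fcer1a from 419 to 128 and Cma1 from 95.4 to 40.6), with a sum of 8229 to 8310.0 in Trib1 and 8705 to 8805 in TB14. Of 3 erythroid markers tested Hba-a1 was higher (768 and 1360.2), and of 5 T cell markers Cd3g (65.6 and 14.9) and Cd3d (34.9 and 27.9) were lower. Of 3 B cell markers tested 0 were called by limma, also at an unadjusted p under 0.05. Their part in the replication gene differences was not tested.

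TB13 did not give one direction for these genes. After quantile scaling 15 members were called higher and 12 lower than in Trib1, when 41.9% and 38.4% of all genes were called. With at least 1.2-fold, 8 were higher and 8 lower, against 28.6% and 26.4%. Those shares were near the background of this comparison, and the member median of 0.028 lay beside an all-gene median of 0.026. On the deposited values 1 member was higher and 37 were lower, against 29.0% and 63.6% of all genes, with medians of -0.56 for the members and -0.39 for all genes. Under median scaling 0 were higher, also at an unadjusted limma p under 0.05, and 38 lower, against 20.6% and 70.6%, with medians of -0.81 and -0.63. Under cyclic loess the medians were 0.059 and 0.017. With calibration on the controls 28 were higher and 4 lower, against 73.8% and 11.4% of all genes, with medians of 0.20 and 0.51. The members' median therefore lay below the all-gene median on the deposited, median-scaled and calibrated values and close to it after quantile scaling and cyclic loess. All 4 TB13 arrays lay above all Trib1 arrays for 14 members and below them for 12, beside 36.9% and 34.7% of all genes, and 12 members overlapped. Cell type markers differed in both directions here too, after quantile scaling. Of 5 T cell markers tested, Cd3e (line means 63.0 in Trib1 and 231 in TB13) and Cd4 (20.0 and 28.0) were called higher, and Cd3g (65.6 and 13.2) and Cd3d (34.9 and 27.1) lower, with a sum of 230 to 238 in Trib1 and 315 to 396 in TB13. Of 3 erythroid markers, Hba-a1 (768 and 1692) and Epor (66.4 and 180.2) were higher. Of 13 myeloid markers 5 were higher, Mpo (1044 in TB13) among them, and 7 lower, Itgam (30.3) among them, with sums of 11969 to 12048 and 11552.0 to 11911. Of 5 mast cell markers Ms4a2 was higher (341 in TB13) and 3 were lower, Mcpt8 (1671 and 842) among them. Of 3 B cell markers Ms4a1 (20.4 and 38.1) and Cd79a (34.9 and 45.4) were higher. Their part in the TB13 differences was not tested.

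**Figure D3:**
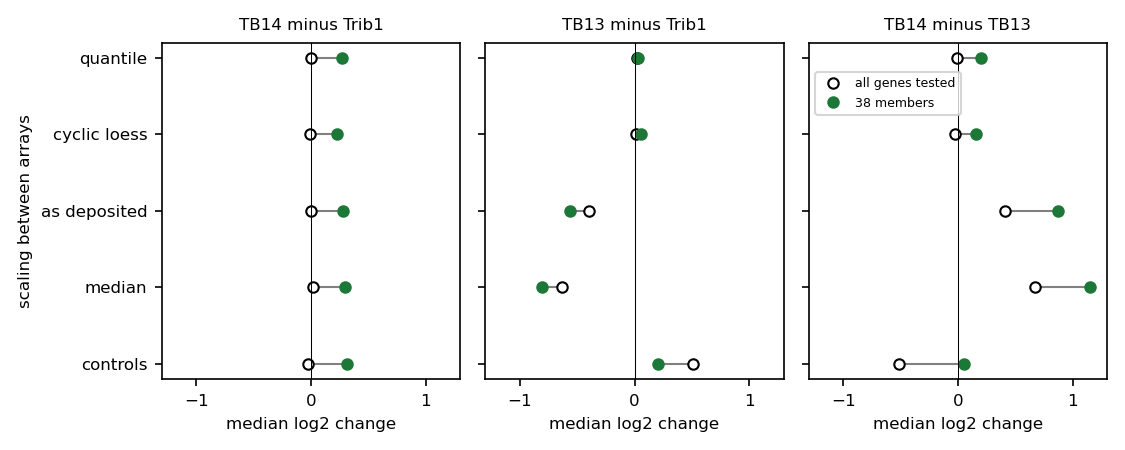
Median log2 change (x axis) of the 38 genes (filled green circles) and of all 11223 genes tested (open circles) under 5 scalings between arrays (rows), for TB14 minus Trib1, TB13 minus Trib1 and TB14 minus TB13. The TB14 minus Trib1 medians of the members stay between 0.23 and 0.32, while the TB13 minus Trib1 medians run from -0.81 to 0.20 together with those of all genes.

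Mcm5, Pcna, Fen1 and Brca1 were called lower in TB13 under all 5 scalings, 4 of 38 where 10.9% of all genes were, and 0 members were called higher under all 5, also at an unadjusted limma p under 0.05, where 18.1% of all genes were. Mcm5 read 569, 588, 589 and 607 on the TB13 arrays (log2 difference -0.33 ± 0.023, adjusted p = 1.28e-09), below the Trib1 range. Its TB13 difference was -0.94, -1.20, -0.37 and -0.21 on the deposited values, under median scaling, under cyclic loess and with calibration. Pcna read 3063, 3052, 3098 and 3188 (log2 difference -0.17 ± 0.014, adjusted p = 7.76e-09), with -0.23, -0.50, -0.14 and -0.22 in the same order. Fen1 read 446, 474, 472 and 437 (log2 difference -0.31 ± 0.028, adjusted p = 4.07e-08), with -1.01, -1.27, -0.38 and -0.18. Mcm5, Pcna and Fen1 were thus called lower than in Trib1 in TB13 and higher in TB14 under all 5 scalings, 3 of 38 beside 1.15% of all genes, with the Trib1 arrays shared by both comparisons. Brca1 read 120.2, 112, 138 and 117 (log2 difference -0.71 ± 0.054, adjusted p = 3.86e-09), with -1.35, -1.58, -0.59 and -0.23, and all 4 TB13 arrays lay far below the Trib1 ones.

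Most other TB13 differences turned sign or lost their call with the scaling. Mcm3 read 845, 817, 817 and 825 after quantile scaling (log2 difference 0.34 ± 0.022, adjusted p = 5.21e-10), but its difference was -0.19 as deposited and 0.47 with calibration. Mcm2 read 743, 739, 758 and 666, with differences of 0.24 after quantile scaling, -0.33 as deposited and 0.37 after calibration on the controls. Cdc6, the largest rise in TB14, read 251, 254, 240.3 and 211 in TB13, across the Trib1 range, with 0.022 after quantile scaling, -0.75 as deposited and 0.28 after calibration on the controls. Cdt1 read 1346, 1345, 1367 and 1407 and stood above Trib1 after quantile scaling, with 0.38 after quantile scaling, 0.045 as deposited and 0.50 after calibration on the controls. Under median scaling its difference was -0.22. Mcm10 gave 0.48 after quantile scaling, -0.28 as deposited and 0.71 after calibration on the controls. Gins2 gave 0.45 after quantile scaling, -0.31 as deposited and 0.72 after calibration on the controls. The loading factor Cdt1 and the helicase factors therefore had no settled direction in TB13.

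Of the fork genes, Rfc3 read 145, 141, 113 and 105 in TB13, all below the Trib1 range, with -0.56 after quantile scaling, -1.19 as deposited and -0.073 after calibration on the controls. Rfc4 gave -0.22 after quantile scaling, -0.92 as deposited and -0.082 after calibration on the controls, and Rfc2 gave -0.10 after quantile scaling, -0.42 as deposited and 0.0073 after calibration on the controls. Pole read 222, 248, 239 and 241, with 0.24 after quantile scaling, -0.53 as deposited and 0.51 after calibration on the controls. Rrm1 read 1205, 1182, 1162 and 1209.7, which spanned the Trib1 arrays, with -0.00044 after quantile scaling, -0.37 as deposited and 0.11 after calibration on the controls. Tk1 read 361, 302, 324 and 337, with 0.37 after quantile scaling, -0.39 as deposited and 0.58 after calibration on the controls. The Rrm1 difference missed the threshold after quantile scaling, which does not show equal levels. Msh6 gave -0.31 after quantile scaling, -1.07 as deposited and -0.10 after calibration on the controls. Ung gave 0.30 after quantile scaling, -0.43 as deposited and 0.65 after calibration on the controls. Ccne2 read 206, 237, 238 and 234, with -0.36 after quantile scaling, -1.13 as deposited and -0.11 after calibration on the controls, and Ccne1 gave -0.49 after quantile scaling, -0.71 as deposited and 0.47 after calibration on the controls. Orc1 gave -0.66 after quantile scaling, -0.66 as deposited and 0.51 after calibration on the controls, and its other probe set stood at 0.64 after quantile scaling, against the sign of the chosen one. Rfc3, Rfc4, Msh6 and Ccne2 thus kept their sign in these settings but were not called with calibration. Other probe sets of further members also went against the chosen one in TB13 after quantile scaling. Those called in a limma fit over all kept probe sets belonged to Rfc2 (0.34, with another at -0.025), Tyms (-0.36) and Rrm1 (0.099). Those of Gins2 (-0.026), Mcm10 (-0.061) and Rrm2 (-0.037) were not called.

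Of the remaining members, Pold1 (0.35), Prim1 (0.28), Orc6 (0.18), Pola1 (0.12), Mcm6 (0.11), Tyms (0.090) and Rrm2 (0.087) were called higher in TB13 after quantile scaling, and each was below 0 on the deposited values. Mcm4 (0.027), Mcm7 (0.029), Cdc45 (0.047), Lig1 (0.019), Rpa2 (-0.043) and Apex1 (-0.0045) were not called there. Rpa1 differed by -0.036 (adjusted p = 0.0421), a limma call that was lost without Trib1 array 1, 2 or 4, TB13 array 1 or 4, or TB14 array 2, 3 or 4, with adjusted p from 0.0503 to 0.106. E2f1 differed by 0.11 (adjusted p = 0.0801) in limma's fit and passed without TB13 array 2 (0.0334) or 3 (0.0278). Gins1 differed by 0.10 (adjusted p = 0.126) in the same fit and passed without TB13 array 1 (0.00415). Rfc5 differed by -0.050 (adjusted p = 0.0602) there and passed without TB13 array 1 (0.0490), 3 (0.0384) or 4 (0.0451). Single arrays thus changed these 4 calls. Probe sets of the same gene also conflicted for E2f1 and Rpa1. In a limma fit over all kept probe sets, the other one of E2f1 stood at -0.35 (adjusted p = 0.0022). That of Rpa1 stood at 0.098 (adjusted p = 0.0065), and both went against the sign of the chosen probe set.

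The Bcl11a lines were also compared with each other. After quantile scaling 30 members were higher and 5 lower in TB14 than in TB13, while 38.9% and 41.1% of all genes were, and with at least 1.2-fold 18 were higher and 1 lower (26.5% and 28.9% of all genes). The member median was 0.20 and the all-gene median -0.0087. Members higher in TB14 numbered 37 as deposited (63.4% of all genes), 38 under median scaling (70.9%), 28 under cyclic loess (36.5%) and 17 with calibration (13.1%). Those lower numbered 0, 0, 6 and 9 in the same order (29.4%, 20.5%, 41.5% and 71.3% of all genes), and the counts of 0 were also 0 at an unadjusted limma p under 0.05. The member medians were 0.87, 1.15, 0.16 and 0.053, beside all-gene medians of 0.41, 0.67, -0.028 and -0.51. Under all 5 scalings 17 members were higher in TB14 (12.3% of all genes) and 0 lower (17.9% of all genes), also at an unadjusted limma p under 0.05 in the latter direction. The 17 were Mcm2 to Mcm7, Cdc6, Pcna, Rpa2, Fen1, Rrm1, Tyms, Tk1, Apex1, Msh6, Brca1 and Ccne2.

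The difference between the Bcl11a lines was large in Fen1, at 0.64 ± 0.028 after quantile scaling, and was 1.33, 1.61, 0.65 and 0.57 on the deposited values, under median scaling, under cyclic loess and with calibration. Brca1 differed by 0.82 ± 0.054, with 1.47, 1.74, 0.66 and 0.37 in the same order. Rrm1 differed by 0.60 ± 0.016, with 0.93, 1.22, 0.51 and 0.56. Cdc6 differed by 0.68 ± 0.048, with 1.46, 1.74, 0.65 and 0.50. In the opposite direction after quantile scaling, Cdt1 differed by -0.32 ± 0.020, Mcm10 by -0.24 ± 0.041 and Pole by -0.22 ± 0.045, but on the deposited values these 3 were 0.024, 0.54 and 0.56. Leaving out single arrays changed 4 calls in limma's fit. Without TB13 array 1, Rrm2 was lost (adjusted p = 0.0595), and Rfc4 (0.0136) and E2f1 (0.0285) passed. E2f1 also passed without TB13 array 4 (0.0337). Rpa1 was lost without TB13 array 4 (0.0518) or TB14 array 2 (0.0615).

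For the mean of both Bcl11a lines against Trib1, 25 members were called higher and 8 lower after quantile scaling (38.6% and 31.6% of all genes), and with at least 1.2-fold 9 and 2 (18.7% and 17.8%). Members higher and lower were 6 and 25 as deposited (28.4% and 55.9% of all genes) and 1 and 31 under median scaling (18.2% and 64.1%). They were 24 and 6 under cyclic loess (36.1% and 32.9%) and 30 and 2 with calibration (70.5% and 12.8%). With each line counted as 1 sample, 0 members were called by limma and 1 had an unadjusted p under 0.05. Across all genes, 124 were called in that fit and 471 had an unadjusted p under 0.05. After quantile scaling 6 members had calls of opposite sign in TB13 and TB14 against the shared Trib1 arrays, namely Mcm5, Orc1, Pcna, Fen1, Ccne1 and Ccne2, each lower in TB13 and higher in TB14, when 7.89% of all genes were so called. Of these, Orc1 and Ccne1 were higher in TB13 with calibration (0.51 and 0.47), and Ccne2 stayed lower at -0.11 but was not called.

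Other genes of the same processes were taken from 10 lists with 214 genes, of which 196 had a probe set of their own and 187 were tested. In TB14 against Trib1, 82 of the 187 were called higher and 29 lower, with a median of 0.11, beside 31 and 2 of the 38. The shares over all genes were 22.9% and 20.9%. Of 16 other licensing genes 9 were higher and 1 lower, among them Orc4 of the origin recognition complex (0.44) and the helicase binding protein Mcmbp (0.35). Of 21 other polymerase, clamp and fork genes 12 were higher and 1 lower, with Pole2, a polymerase epsilon subunit (0.43), the topoisomerase Top1 (0.36), the nuclease Dna2 (0.36) and the fork protection factor Tipin (0.30). Of 7 chromatin assembly genes 5 were higher and 0 lower, also at an unadjusted limma p under 0.05, with Uhrf1, which maintains DNA methylation (0.48), the histone chaperone subunit Chaf1b (0.38) and the remodeller Hells (0.38).

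The deoxynucleotide genes outside the 38 moved both ways in TB14, with 6 of 12 higher and 5 lower (22.9% and 20.9% of all genes). Samhd1, which degrades deoxynucleotides, was lower (-0.55), as were Rrm2b, the reductase subunit used outside S phase (-0.40), and Tk2, the mitochondrial thymidine kinase (-0.38). Dut, which removes dUTP, was higher (0.34). Among the 38, Rrm1, Rrm2 and Tk1 were called higher in the same line.

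Of 17 base excision and mismatch repair genes 5 were higher and 1 lower (median 0.00091), with the glycosylase Tdg (0.37), the poly(ADP-ribose) polymerase Parp1 (0.37) and the exonuclease Exo1 (0.36). Of 23 homologous recombination and Fanconi genes 7 were higher and 2 lower (median 0.045), with Rad54b (0.54), Fancb (0.40) and the helicase Brip1 (0.30). Across all genes 22.9% were called higher and 20.9% lower, so the higher calls in both lists lay near that share. Of 16 end joining and nucleotide excision genes 4 were higher and 4 lower, near the background in both directions, with Ddb1 (0.41), Xrcc6 (0.39) and Lig4 (0.36) higher and Ddb2 (-0.43) lower. Of 19 checkpoint genes 8 were higher and 5 lower. The mitotic inhibitor kinase Wee1 (0.44) and Cdkn1a, which encodes p21 (0.36), rose, and Bbc3 (-0.58) and Gadd45a (-0.39) fell.

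Of 27 genes of the E2F, RB and G1 cyclin network 9 were higher and 6 lower in TB14, with a list median of 0.053. Across all genes 22.9% were called higher and 20.9% lower, so the lower calls lay near the background and the higher calls somewhat above it. Cdk2, the partner of cyclin E, was higher (0.80 ± 0.034, line means 269 and 479), as was Skp2, which targets p27 for degradation (0.62), and Ccnd2, a D-type cyclin, was lower (-0.63). Cdkn2a, which encodes the RB and p53 pathway regulators p16 and ARF, fell from 651 ± 22.6 in Trib1 to 209 ± 11.8 in TB14 and 74.0 ± 13.1 in TB13 (SD, n = 4). Its differences were -1.58 ± 0.085 in TB14 (limma adjusted p = 9.77e-11) and -2.95 ± 0.085 in TB13, where it was -3.34 as deposited and -2.31 with calibration. Of 29 mitosis genes 17 were higher and 4 lower, with the cell cycle transcription factor Mybl2 (0.51), the mitotic kinase Cdk1 (0.44) and the spindle checkpoint kinase Bub1b (0.38) higher and the cytokinesis motor Kif23 (-0.41) lower. The other 8 mitosis genes were not called, and the part of these genes in the replication gene differences was not tested.

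**Figure D4:**
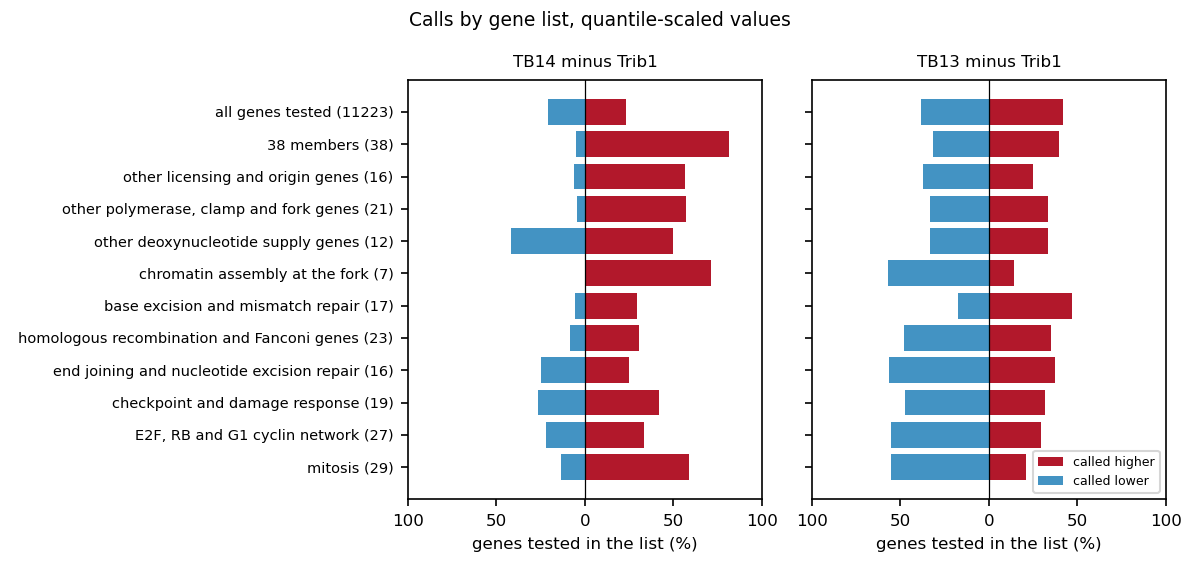
Share of the genes tested in each list (percent, numbers tested in parentheses) called higher (red, to the right of 0) and lower (blue, to the left of 0) after quantile scaling, for TB14 minus Trib1 and TB13 minus Trib1. In TB14 31 of the 38 members were called higher, beside 22.9% of all genes, while in TB13 the members' 15 higher and 12 lower lie near the 41.9% and 38.4% of all genes.

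In TB13 the same 187 genes gave 58 higher and 84 lower after quantile scaling (41.9% and 38.4% of all genes). They gave 9 higher and 165 lower as deposited (29.0% and 63.6%), and 131 higher and 15 lower with calibration (73.8% and 11.4%). The counts thus moved with the scaling as those of all genes did. Genes that kept their sign in these 3 settings included the following, taken from the larger differences of their lists. The forkhead factor of mitotic genes, Foxm1, gave 1.24 after quantile scaling, 0.72 as deposited and 1.81 after calibration on the controls. The helicase Ercc2 gave 1.24 after quantile scaling, 0.54 as deposited and 1.58 after calibration on the controls, the glycosylase Ogg1 1.12 after quantile scaling, 0.59 as deposited and 1.70 after calibration on the controls and Fanca 0.96 after quantile scaling, 0.35 as deposited and 1.46 after calibration on the controls. Kif23 gave -1.90 after quantile scaling, -1.93 as deposited and -0.90 after calibration on the controls, and Ccng1 gave -0.60 after quantile scaling, -1.004 as deposited and -0.49 after calibration on the controls. After quantile scaling 38 of the 187 had calls of opposite sign in the Bcl11a lines, 34 of them higher in TB14 (7.89% of all genes). They were Orc5, Dbf4, Topbp1, Pola2, Rpa3, Dna2, Chtf18, Tipin, Shmt2, Nme1, Rbbp4 and Slbp among replication genes. Among repair and checkpoint genes they were Parp2, Exo1, Brip1, Rad51d, Rad54b, Mre11a, Nbn, Fancb, Lig4, Ercc3, Atrip, Rad17, Gadd45b and Bbc3. Among cell cycle genes they were Ccnd1, Ccna2, Cdkn1b, Skp2, Cdc25c, Plk1, Bub1, Mki67, Tpx2, Kif11, Kif20a and Birc5. Only Shmt2, Parp2, Bbc3 and Ccnd1 of the 38 were higher in TB13 and lower in TB14, and these TB13 directions were read after quantile scaling. The share of all genes with that reverse pattern was not taken.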

How the data were processed

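The authors deposited linear-scale intensities of 45141 probe sets on 12 arrays, computed with MAS5 according to the submitters' processing notes, with version, scaling target and filters not given in the sources used here. From the deposited intensities, 104 control probe sets were removed. Names came from the platform annotation (28898 probe sets with 1 gene, 551 with several, 15588 with none). Values were quantile scaled and taken to log2(value + 12.7), the added constant being their 25th percentile, so changes of dim genes are understated. Probe sets above the array median on at least 4 of 12 arrays were kept, 17475 of them with 1 gene, and each gene kept the probe set with the highest mean. R 4.3.3 with limma 3.58.1 fitted 3 groups in 1 model, with a mean-dependent variance prior and Benjamini-Hochberg adjustment over 11223 genes, and was tested on simulated data. Figures were drawn with matplotlib 3.10.9. The members, lists and tests were chosen with earlier results of these data known. All members are named. Of the other lists, up to 4 genes a list in each contrast were named, called at 1.2-fold or more and largest first, with those called in opposite directions. Alternatives were 4 other scalings, other pseudocounts, filters, variance models and probe set rules, leaving out each array, line means and the replicate number as a block. Calibration fitted the 18 hybridization controls of each array to their mean over arrays. The labels do not pair same-numbered arrays of different lines. Their deviations from the line means correlated at -0.0913 to 0.0992, and those of other pairs at -0.0629 to 0.0721. With 4 arrays a line, such values cannot show whether same-numbered arrays shared a culture day or batch. Within a line arrays correlated at 0.994 or above, and none were identical. Arrays have no read depth.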

Additional observations from a re-analysis of the deposited data

Results flagged for a closer look

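In 5 of the 114 groups of 4 arrays formed by the 38 genes and 3 lines, 1 array lay far from the other 3 relative to the group's range, and chance alone gives about 1 such group in 20. Mcm3 read 634 on Trib1 array 3 and 651 to 655 on the others. Brca1 read 202 on Trib1 array 1 and 208 to 209 on the others. In TB13, Rfc5 read 501 on array 2, with the others at 523 to 527, and Apex1 read 485 on array 2, with the others at 514 to 520. Ccne2 read 206 on TB13 array 1 and 234 to 238 on the others.

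For 35 members the difference between the Bcl11a lines, TB14 minus TB13, passed limma's test after quantile scaling, so their changes against Trib1 were unequal in these lines. The log2 differences of 30 of them were above 0. The largest were Orc1 0.95, Brca1 0.82, Ccne1 0.75, Ccne2 0.74, Cdc6 0.68 and Fen1 0.64. Next came Rrm1 0.60, Mcm5 0.56, Rfc3 0.54, Rpa2 0.42, Msh6 0.34 and Mcm4 0.31. These were followed by Mcm3 0.31, Tk1 0.29, Apex1 0.29, Mcm7 0.28, Pcna 0.27 and Mcm2 0.27. Smaller still were Tyms 0.20, Ung 0.19, Gins1 0.19, Mcm6 0.18, Cdc45 0.16 and Lig1 0.15. Below these lay Orc6 0.15, Gins2 0.14, Rfc5 0.14, Pola1 0.12, Rrm2 0.080 and Rpa1 0.042. The 5 below 0 were Prim1 -0.10, Rfc2 -0.17, Pole -0.22, Mcm10 -0.24 and Cdt1 -0.32. Other probe sets of some members had the opposite sign for this comparison. Those of Orc1 (-0.60), Mcm10 (0.16) and Rpa1 (-0.075) were called in a limma fit over all kept probe sets, and that of Mcm2 (-0.056) was not. The top rank of Orc1 thus rests on its brightest probe set. The shift of the TB13 arrays enters each of these values, and its part in the differences was not tested.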

How the results depend on the processing

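For TB14 minus Trib1, all results kept their direction except for members called in neither setting. Members higher and lower were 19 and 1 at 1.2-fold or more. Their median was 0.30 under median scaling, 0.23 under cyclic loess, 0.32 with calibration on the controls and 0.24 with a pseudocount of 32. For TB13 minus Trib1, 8 were higher at 1.2-fold or more. Higher, lower and median were 1, 37 and -0.56 as deposited, 0, 38 and -0.81 under median scaling, and 28, 4 and 0.20 with calibration. The median was 0.059 under cyclic loess. For TB14 minus TB13, 18 were higher and 1 lower at 1.2-fold or more. As deposited 0 were lower (median 0.87), under median scaling 0 (1.15), and with calibration 17 were higher and 9 lower (0.053). The median was 0.16 under cyclic loess and 0.26 with the mean of probe sets. For both lines against Trib1, 9 were higher and 2 lower at 1.2-fold or more, 6 and 25 as deposited (median -0.14), and 1 and 31 under median scaling (-0.24). With calibration 2 were lower (0.28), the median was 0.14 under cyclic loess and 0.13 with the mean of probe sets, and line means gave 0 and 0. The causes of these changes were not tested.

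Leaving out 1 array at a time, TB14 minus Trib1 gave 30 to 32 higher, 2 lower and medians of 0.26 to 0.28. TB13 minus Trib1 gave 15 to 16, 11 to 13 and 0.0081 to 0.048. TB14 minus TB13 gave 29 to 31, 5 and 0.20 to 0.23. Both lines against Trib1 gave 25, 6 to 9 and 0.14 to 0.17. The replicate block moved the genes called from 4915 to 4823 for TB14 minus Trib1, from 9013 to 8982 for TB13 minus Trib1, from 8983 to 8936 for TB14 minus TB13 and from 7886 to 7856 for both lines. With the replicate block the TB13 call of Rpa1 was lost (limma adjusted p = 0.0646), and no array could be said to share more than a number.

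Log2 differences that turned sign against quantile scaling, with a call in either setting, numbered 55 for TB13 minus Trib1, 23 for TB14 minus TB13 and 0 for TB14 minus Trib1. For TB13 minus Trib1 on the deposited values, the values were Mcm2 -0.33, Mcm3 -0.19, Mcm4 -0.41, Mcm6 -0.037, Mcm7 -0.40, Mcm10 -0.28, Cdc6 -0.75, Cdc45 -0.71, Gins1 -0.68, Gins2 -0.31, Orc6 -0.59, Pola1 -0.63, Pold1 -0.42, Pole -0.53, Prim1 -0.35, Lig1 -0.68, Rrm2 -0.28, Tyms -0.50, Tk1 -0.39, Ung -0.43 and E2f1 -0.59. For TB13 minus Trib1 under median scaling, the values were Mcm2 -0.59, Mcm3 -0.45, Mcm4 -0.68, Mcm6 -0.30, Mcm7 -0.67, Mcm10 -0.53, Cdc6 -0.999, Cdt1 -0.22, Cdc45 -0.95, Gins1 -0.93, Gins2 -0.56, Orc6 -0.84, Pola1 -0.89, Pold1 -0.67, Pole -0.78, Prim1 -0.61, Lig1 -0.94, Rrm2 -0.55, Tyms -0.76, Tk1 -0.65, Ung -0.68 and E2f1 -0.84. For TB13 minus Trib1 under cyclic loess, the value was Rpa1 0.066. For TB13 minus Trib1 with calibration on the controls, the values were Orc1 0.51, Rfc2 0.0073, Rpa1 0.075, Rpa2 0.13, Rrm1 0.11, Apex1 0.13 and Ccne1 0.47. For TB13 minus Trib1 with the mean of probe sets, the values were Rfc2 0.074, Rpa1 0.031, Rrm1 0.049 and Tyms -0.13. For TB14 minus TB13 on the deposited values, the values were Mcm10 0.54, Cdt1 0.024, Rfc2 0.19, Pold1 0.74, Pole 0.56 and Prim1 0.53. For TB14 minus TB13 under median scaling, the values were Mcm10 0.82, Cdt1 0.31, Rfc2 0.48, Pold1 1.02, Pole 0.83 and Prim1 0.81. For TB14 minus TB13 under cyclic loess, the values were Rpa1 -0.084 and Rrm2 -0.011. For TB14 minus TB13 with calibration on the controls, the values were Cdc45 -0.11, Gins2 -0.054, Orc1 -0.18, Orc6 -0.043, Rpa1 -0.027, Ung -0.084, E2f1 -0.27 and Ccne1 -0.17. For TB14 minus TB13 with the mean of probe sets, the value was Rpa1 -0.017. The causes were not tested. Array number and, for TB13, the shift of the arrays limit the precision.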
